A study of Mus musculus with 8 samples.

Results

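Polymerase II, the general transcription factors and Mediator are the machinery that starts transcription at protein-coding genes, and their genes were followed here in mouse embryos before and after the first cleavage. The members were set by a rule on gene symbols, chosen with earlier results of these data known. The rule took Polr2 plus a letter, Gtf2 plus letters or digits without Gtf2i and Gtf2ird genes, and Taf plus a number. It also took Tbp with its paralogues Tbpl1 and Tbpl2, and Med plus a number. This gave 82 symbols, of which 81 had a value among the 21553 genes measured, and Med20, a Mediator head gene, was not analysed here. The 81 comprise 29 Mediator genes, 26 genes of the TBP family and the TBP-associated factors (TAFs), 13 genes of TFIIA, TFIIB, TFIIE, TFIIF and TFIIH, and 13 polymerase II genes.

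Zygotes from B6CBA F1 crosses were injected with Snrpb mRNA, with Snrpd2 mRNA, with both mRNAs, or with mRNA for the fluorescent protein mCherry as the control. Both are genes of Sm proteins, the ring-forming partners of spliceosomal RNAs, and the 3 injections that contain them are called Sm injections below. Polyadenylated RNA was taken from whole embryos at the 2-cell stage, 24 h after injection, and at the 1-cell stage, 5 h after injection. Each of the 8 conditions gave 1 library from 40 embryos, gathered over 3 separate experiments, so a p-value for the stage measures the spread between differently injected libraries and not between repeated pools.

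Polymerase II is built from a catalytic core, subunits that it shares with polymerases I and III, and a stalk. TFIID, made of TBP and TAFs, binds the promoter, TFIIA and TFIIB steady it and bring in the polymerase with TFIIF, and TFIIE and TFIIH open the DNA. Mediator links activators to this assembly through its tail, touches the polymerase through its head and middle, and is held off by its kinase module. In the mouse the egg carries a maternal stock of mRNA that is cleared during these hours, while the main wave of embryonic transcription begins at the 2-cell stage, and growing oocytes use TBPL2 in place of TBP.

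Depth was 39492734 to 59979046 counted reads a library, and the 81 genes took 0.831 to 0.879% of the reads at the 2-cell stage and 0.776 to 0.819% at the 1-cell stage. The injected genes followed the labels: Snrpb stood at 876 to 43850 cRPKM (the deposited RPKM value, read number per kilobase of gene and per library total) in libraries labelled with it and at 6.09 to 26.2 cRPKM in the others, and Snrpd2 at 4726 to 17926 cRPKM against 0.85 to 10.6 cRPKM. Of the 6 markers of the 2-cell stage all 6 were called higher at the 2-cell stage by edgeR, and 10 of 12 oocyte markers lower. The summed level of 15 cumulus and granulosa markers was 19.0 to 27.2 cRPKM at the 2-cell stage and 22.8 to 49.1 cRPKM at the 1-cell stage. Of the 15, 3 rose (Foxl2, Amhr2 and Lhcgr) and 5 fell (Cyp19a1, Cyp11a1, Star, Inha and Inhba). Cyp19a1 had 3.46 to 4.60 cRPKM at the 2-cell stage and 15.5 to 19.7 cRPKM at the 1-cell stage, Foxl2 had 3.34 to 5.40 cRPKM at the 2-cell stage and 0.02 to 0.05 cRPKM at the 1-cell stage, and Amh was at no more than 0.08 cRPKM in any library. The summed level of 7 blood, fibroblast and oviduct markers was 14.8 to 26.5 cRPKM at the 2-cell stage, most of it Epcam and Lyz2, and 0.43 to 0.62 cRPKM at the 1-cell stage. The part of these cell markers in the stage results was not tested.

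Promoters are shown for the 2 members with the largest rise and the 2 with the largest fall between the stages, and for the TBP family pair that moved in opposite directions. RefSeq (GRCm38.p6) gave a promoter for 70 of the 81 members, and the 250 bases before the annotated start are printed 5′ to 3′ on the gene's own strand. Capitals mark matches, on either strand, to TATAAA of the TATA box, GGGCGG of the GC box, CCAAT of the CCAAT box, CCGGAAG as an ETS core, CACGTG as an E-box, AAGATGGC of YY1 or the palindromic NRF1 motif, and neighbouring matches can run together. The Taf1b window held none of them.
Taf7l (chrX:134476491-134476740, minus strand): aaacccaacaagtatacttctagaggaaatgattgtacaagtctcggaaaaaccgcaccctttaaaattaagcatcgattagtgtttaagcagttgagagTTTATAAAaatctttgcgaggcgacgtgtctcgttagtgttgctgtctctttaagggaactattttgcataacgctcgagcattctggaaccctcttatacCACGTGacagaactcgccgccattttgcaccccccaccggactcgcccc
Med29 (chr7:28392691-28392940, minus strand): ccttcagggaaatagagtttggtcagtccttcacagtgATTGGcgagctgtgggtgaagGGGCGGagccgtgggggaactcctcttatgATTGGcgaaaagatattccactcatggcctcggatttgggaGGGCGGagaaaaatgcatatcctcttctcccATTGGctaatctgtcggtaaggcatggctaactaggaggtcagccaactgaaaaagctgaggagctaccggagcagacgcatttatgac
Tbpl1 (chr10:22731448-22731697, minus strand): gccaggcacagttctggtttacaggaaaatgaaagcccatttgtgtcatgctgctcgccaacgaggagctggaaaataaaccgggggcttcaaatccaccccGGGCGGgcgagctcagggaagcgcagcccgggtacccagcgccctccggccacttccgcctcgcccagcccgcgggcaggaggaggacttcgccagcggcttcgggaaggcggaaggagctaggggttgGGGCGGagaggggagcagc
Med17 (chr9:15279907-15280156, minus strand): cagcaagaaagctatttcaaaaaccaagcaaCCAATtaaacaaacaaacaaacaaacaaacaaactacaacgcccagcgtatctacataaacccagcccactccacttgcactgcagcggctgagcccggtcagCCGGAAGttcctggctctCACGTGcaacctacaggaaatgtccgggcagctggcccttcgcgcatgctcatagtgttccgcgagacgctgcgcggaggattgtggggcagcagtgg
Taf1b (chr12:24498331-24498580, plus strand): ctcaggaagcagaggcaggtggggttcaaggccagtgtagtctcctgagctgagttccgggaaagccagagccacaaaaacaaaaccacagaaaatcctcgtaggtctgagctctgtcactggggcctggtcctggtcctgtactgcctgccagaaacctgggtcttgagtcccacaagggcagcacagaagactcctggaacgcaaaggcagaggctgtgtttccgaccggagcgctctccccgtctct
Tbp (chr17:15499638-15499887, plus strand): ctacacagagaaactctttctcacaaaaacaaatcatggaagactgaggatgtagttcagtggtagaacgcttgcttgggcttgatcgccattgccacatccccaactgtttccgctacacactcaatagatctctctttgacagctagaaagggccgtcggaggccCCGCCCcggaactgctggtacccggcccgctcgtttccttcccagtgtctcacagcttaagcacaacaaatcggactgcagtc
The GC box letters were in 61.4% of the 70 member promoters and in 32.9% of 27025 promoters in the RefSeq table. The ETS core was in 21.4% of member promoters and 7.05% of all, and the E-box in 14.3% and 6.05%. CCAAT was in 34.3% of member promoters against 34.5% of all, TATAAA in 17.1% against 13%, and the YY1 letters in 2.86% against 1.59%. The NRF1 motif was in none of the 70 and in 0.781% of all. A median of 18 CG dinucleotides fell in a member window, against 6 in all windows. Between members that rose and members that fell with the stage, the GC box stood at 58.1% of 31 and 58.6% of 29 promoters, and TATAAA at 22.6% and 10.3%. Such matches describe letters and say nothing of binding.

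At the 2-cell stage most members differed from the 1-cell stage, in both directions. In a comparison of the 4 libraries of each stage with injection as a term (edgeR quasi-likelihood test, Benjamini-Hochberg adjustment over 16264 genes, call at an adjusted p of 0.05), 33 of the 81 members rose and 34 fell. These shares, 40.7% and 42.0%, stand beside 38.1% of all tested genes that rose and 32.0% that fell, with 70.1% of all genes called either way against 82.7% of the members. By at least 2-fold, 16 rose and 23 fell, beside 29.4% and 19.7% of all tested genes. The median change of the members was -0.12 on the log2 scale and that of all tested genes 0.15, and scaling by library totals, which puts the median of all genes at 0.41, put the members' at 0.14. All these values are relative to the other polyadenylated RNA of a library, so a rise or fall need not be a change in molecules per embryo. In pooled whole embryos, fewer molecules in each embryo and fewer embryos that hold them cannot be told apart.

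The cRPKM values of the 4 libraries of 1 stage did not overlap those of the other for 62 members, 36 of them higher and 26 lower at the 2-cell stage, against 42.8% of all tested genes higher and 24.8% lower. Taken 1 injection at a time, 12 members were at least 2-fold higher in all 4 injections, of 80 with enough reads, and 17 were at least 2-fold lower (19.2% and 17.0% of all genes). The 12 were Taf7l, Med29, Taf1d, Taf13, Taf2, Polr2h, Polr2j, Tbpl1, Polr2f, Taf4b, Polr2l and Taf11. The 17 held 8 Mediator genes, Gtf2b, Gtf2a1l, Gtf2f2, Gtf2h2 and Gtf2h3, and the TAF genes Taf1a, Taf1b, Taf7 and Taf8. Of the 67 calls, 52 held under every alternative tried, 25 higher and 27 lower.

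**Figure D1:**
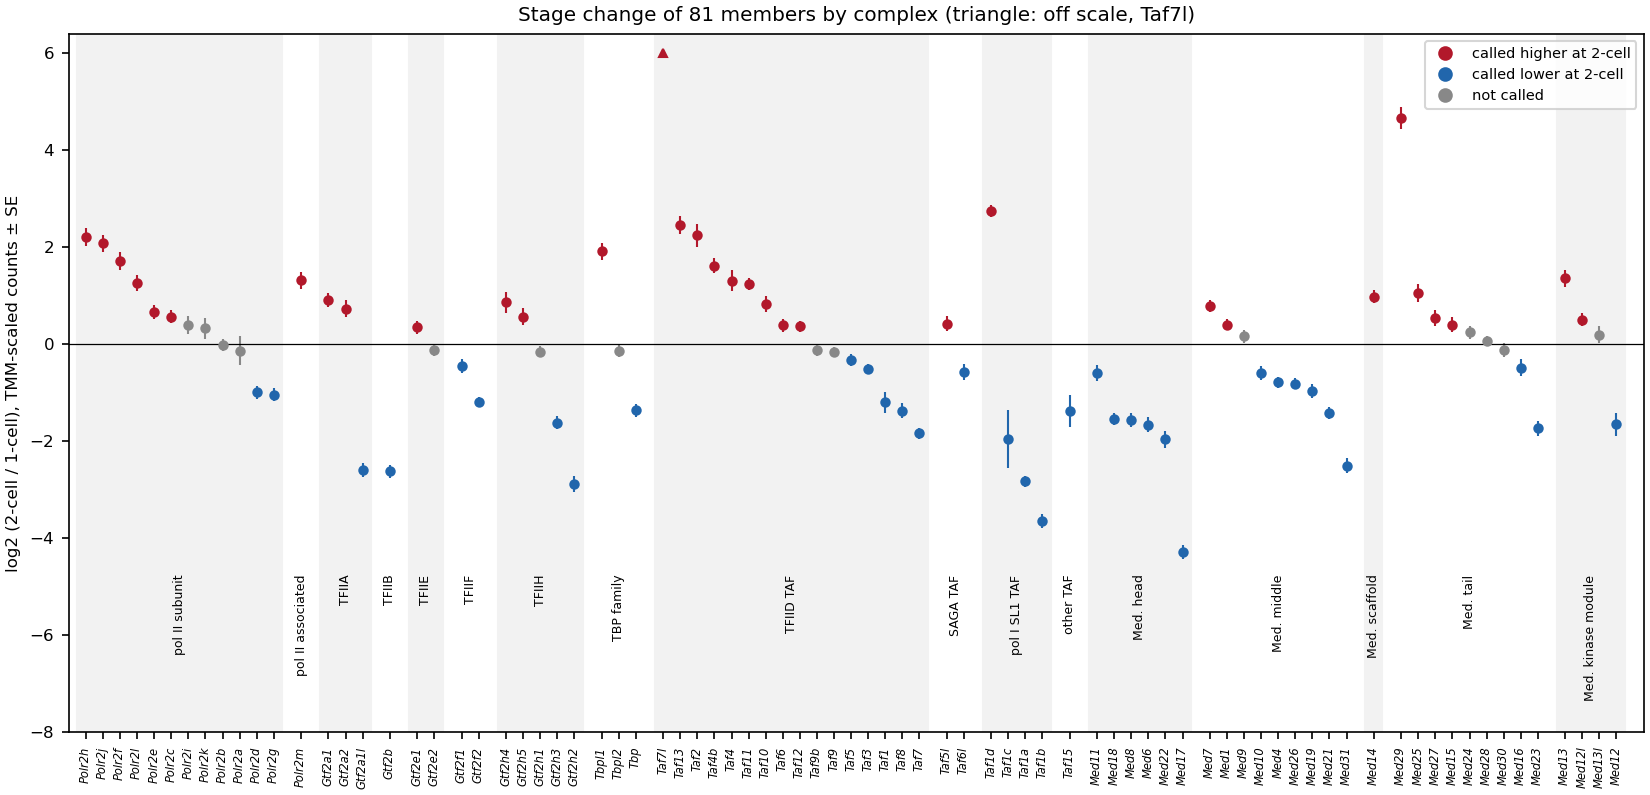
Fitted log2 difference, 2-cell minus 1-cell, of each member (edgeR, 8 libraries, injection as a term), grouped by complex, with error bars of 1 standard error. All 6 Mediator head genes lie below 0. Taf7l (10.22), a gene without reads in 3 of 4 1-cell libraries, is off the scale and drawn as a triangle at the top without an error bar.

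Among the 12 polymerase II subunits, 6 rose at the 2-cell stage, 2 fell and 4 were not called, where 38.1% of all tested genes rose and 32.0% fell. Their summed level was 1581 ± 155 cRPKM at the 2-cell stage and 824 ± 73.9 cRPKM at the 1-cell stage (SD, n = 4 libraries each). The 6 that rose were Polr2c and its assembly partner Polr2j, and Polr2e, Polr2f, Polr2h and Polr2l, which encode subunits shared by all 3 nuclear polymerases. The 2 that fell, Polr2d and Polr2g, encode the stalk.

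Polr2h stood at 29.0 cRPKM in Snrpb, 40.6 in Snrpd2, 30.0 in Snrpb+Snrpd2 and 33.8 in mCherry embryos at the 2-cell stage, against 7.27, 5.62, 6.26 and 4.93 cRPKM in the same order at the 1-cell stage. Every 2-cell library lay above every 1-cell library, and the fitted difference was 2.21 ± 0.18 on the log2 scale (SE, edgeR adjusted p = 2.18e-06). Polr2g had 77.7, 104, 84.9 and 98.8 cRPKM at the 2-cell stage, against 156, 137, 138 and 202 cRPKM at the 1-cell stage. Its libraries did not overlap either, and the fitted difference was -1.04 ± 0.13 (adjusted p = 5.13e-05 by edgeR).

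Polr2j, at 355 to 485 cRPKM in 2-cell libraries and 54.9 to 107 cRPKM in 1-cell libraries, ranked 3 of the 81 members at the 2-cell stage and 20 at the 1-cell stage. Polr2f had 225 to 311 cRPKM at the 2-cell stage and 43.4 to 89.4 cRPKM at the 1-cell stage, a log2 difference of 1.72. Polr2l (1.26), Polr2e (0.66) and Polr2c (0.57) rose by less. Polr2c, with Polr2j the base on which the enzyme assembles, was the most abundant member of all at the 2-cell stage, at 577 to 660.4 cRPKM, and stood at 292 to 465 cRPKM at the 1-cell stage. The stalk gene Polr2d fell by 0.99 on the log2 scale. As a share of all subunit cRPKM, the 2 stalk genes made up 9.33 ± 0.42% at the 2-cell stage and 31.0 ± 7.42% at the 1-cell stage, a grouping made after the values were seen and given without a test.

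Neither of the 2 catalytic subunits was called. Polr2a, which encodes the largest subunit with its C-terminal repeats, had 1.85, 0.66, 1.66 and 0.94 cRPKM in Snrpb, Snrpd2, Snrpb+Snrpd2 and mCherry embryos at the 2-cell stage, against 0.87, 1.40, 1.48 and 0.78 cRPKM at the 1-cell stage. The stages overlapped, and the log2 difference was -0.14 ± 0.30 (edgeR adjusted p = 0.70). Its sign turned without the Snrpd2 libraries (0.22) and with library totals (0.12). Polr2b, which completes the active site, had 17.9 to 20.2 cRPKM at the 2-cell stage and 13.4 to 18.6 cRPKM at the 1-cell stage, a difference of -0.02 ± 0.12 that was not called. Polr2i and Polr2k, at 0.39 and 0.33, were not called either, and Polr2k too encodes a subunit shared with polymerases I and III. Per kilobase, Polr2a was the least abundant subunit in both stages and Polr2c the most abundant, with stage means 481-fold apart at the 2-cell stage and 310-fold apart at the 1-cell stage.

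Longer members tended to have lower cRPKM. The length implied by the deposited counts and cRPKM was 5748 bases for Polr2a and 1165 bases for Polr2c, and across the 81 members Spearman's rho between that length and the mean cRPKM was -0.38 at either stage. Across 16001 tested genes it was -0.13 at the 2-cell stage and -0.06 at the 1-cell stage. The fitted stage difference had a rho of 0.04 with length over the members. These genes share the same 8 libraries, so the coefficients are descriptions. Because cRPKM is the count divided by that same length, level and length are not independent, and a negative coefficient can be partly built in.

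**Figure D2:**
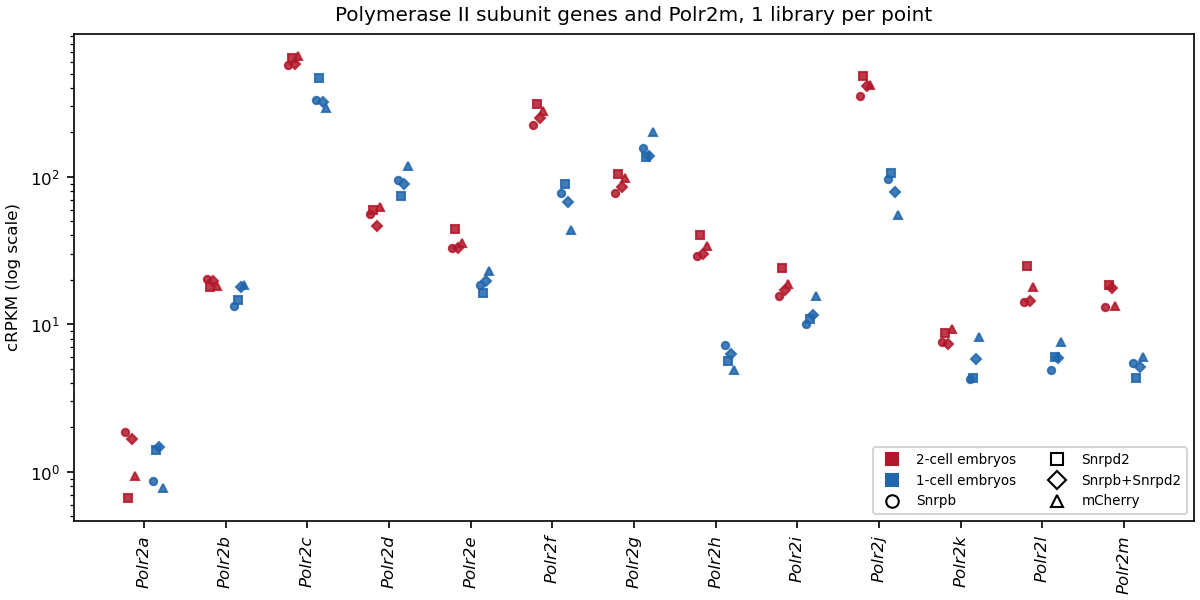
cRPKM (log scale) of the polymerase II subunits in each of the 8 libraries, 2-cell libraries left of 1-cell libraries for each gene. Polr2c and Polr2j stand at the top, Polr2a at 0.66 to 1.85 cRPKM at the bottom, and the stalk genes Polr2d and Polr2g are lower at the 2-cell stage.

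Polr2m, whose product Gdown1 binds polymerase II and represses initiation until Mediator acts, also rose. It had 13.1 to 18.5 cRPKM at the 2-cell stage and 4.31 to 5.97 cRPKM at the 1-cell stage, a log2 difference of 1.32 ± 0.18 (edgeR adjusted p = 7.5e-05). The reads of Polr2b, Polr2c, Polr2f, Polr2h, Polr2i and Polr2j could include reads of genes on the opposite strand that overlap them. How strand was used in counting is not given in the sources used here. Over the 8 libraries Polr2i had 2868 reads and its neighbour Tbcb 7926.

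The 3 TBP family genes went different ways at the 2-cell stage. Tbpl1, the TBP-like factor that mouse spermatids require, rose, Tbp fell, and Tbpl2, the oocyte paralogue, was not called. Tbpl1 had 14.8 cRPKM in Snrpb, 17.8 in Snrpd2, 18.4 in Snrpb+Snrpd2 and 20.3 in mCherry embryos at the 2-cell stage, against 3.98, 4.91, 4.0 and 3.03 cRPKM at the 1-cell stage. No library of 1 stage reached the other, and the log2 difference was 1.91 ± 0.18 (edgeR adjusted p = 6.32e-06). Slc2a12 overlaps Tbpl1 on the opposite strand and had 13156 reads over the 8 libraries, against 9512 for Tbpl1.

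Tbp itself had 4.37, 5.76, 4.88 and 4.61 cRPKM at the 2-cell stage, against 10.3, 9.08, 10.5 and 12.4 cRPKM at the 1-cell stage, again without overlap. It fell by 1.37 on the log2 scale (SE 0.13, edgeR adjusted p = 8.16e-06). Tbpl2 had 16.0, 17.2, 14.1 and 17.9 cRPKM at the 2-cell stage, against 15.9, 14.6, 14.0 and 15.7 cRPKM at the 1-cell stage. The stages overlapped, at a log2 difference of -0.15 ± 0.13 (adjusted p = 0.321), and the sign was positive with library totals (0.11).

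As a share of the 3 family members' cRPKM, Tbpl1 made up 45.6 ± 3.27% at the 2-cell stage and 13.5 ± 3.07% at the 1-cell stage (SD, n = 4; two-sided exact permutation p = 0.0286, adjusted p = 0.0409). That p is the smallest that 4 against 4 libraries can give, and the adjustment is over the 10 paralogue shares compared. The permutation leaves out the pairing of libraries by injection, so the p-values of these shares describe only how the stages' libraries separate. Tbpl2 as a share of Tbpl2 and Tbp was 76.8 ± 2.6% at the 2-cell stage and 58.8 ± 2.74% at the 1-cell stage (exact permutation p = 0.0286, adjusted 0.0409). Per kilobase, Tbpl2 stood above Tbp in all 8 libraries, which rests on the implied lengths of 1330 bases for Tbpl2 and 11575 bases for Tbp. In reads the order was the reverse, with 741 to 1021 for Tbpl2 and 2051 to 2976 for Tbp at the 2-cell stage, and 919 to 1266 for Tbpl2 and 5689 to 7997 for Tbp at the 1-cell stage. Shares between paralogues likewise depend on the length by which each gene is divided.

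**Figure D3:**
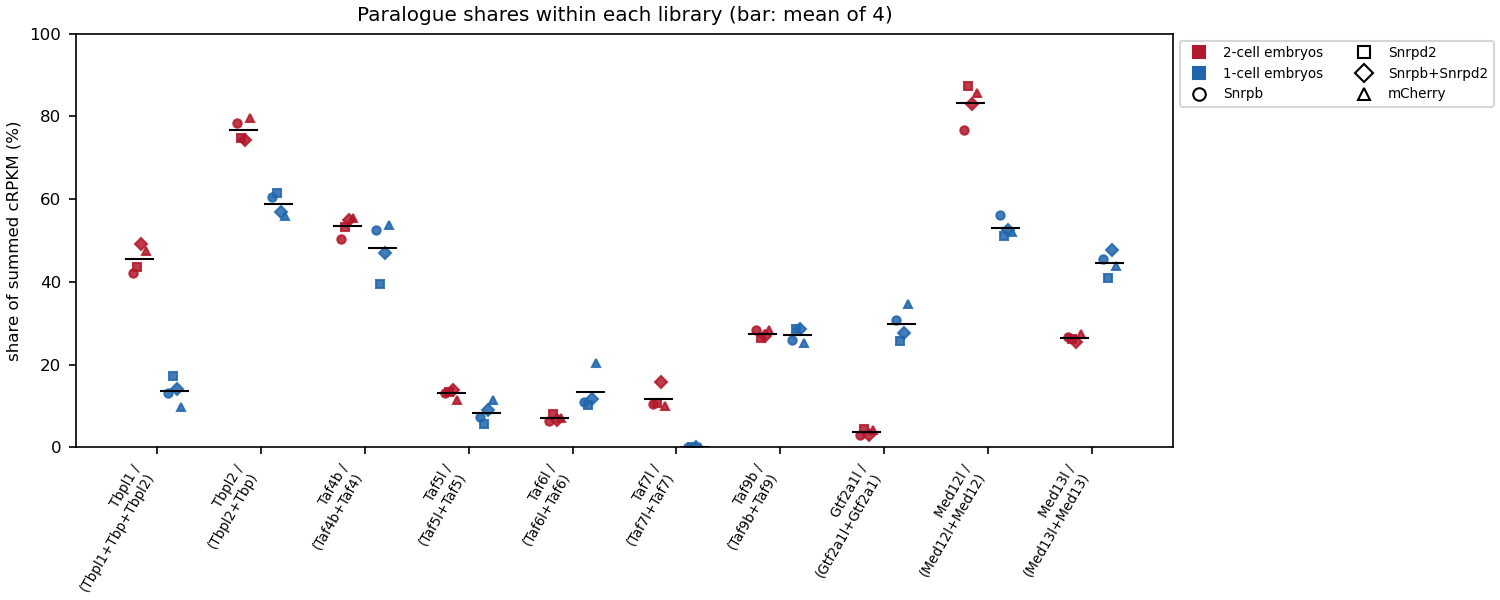
Share of each paralogue in the summed cRPKM of its family (%), 1 point a library and a bar at the mean of 4, with 2-cell libraries left of 1-cell libraries. Tbpl1, Tbpl2, Taf7l and Med12l lie higher at the 2-cell stage, Taf6l, Gtf2a1l and Med13l lower, and Taf9b at 25.3 to 28.7% in all libraries.

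Of the 16 TFIID TAF genes, 9 rose at the 2-cell stage, 5 fell and 2 were not called (38.1% of all genes rose and 32.0% fell), with a median log2 difference of 0.38. Taf7l, the germ cell paralogue of Taf7 on the X chromosome, had 4.01, 5.46, 7.22 and 4.60 cRPKM in Snrpb, Snrpd2, Snrpb+Snrpd2 and mCherry embryos at the 2-cell stage. At the 1-cell stage it had no read in 3 libraries and 1 read, 0.01 cRPKM, in Snrpb+Snrpd2 embryos. Against a floor of 3 reads in each such 1-cell library it was at least 121-fold higher in Snrpb, 148-fold in Snrpd2 and 139-fold in mCherry embryos (edgeR adjusted p = 3.61e-08 over the stages). In Snrpb+Snrpd2 embryos the ratio was 580.0 with a 95% counting interval of 104 to 22952.

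Taf7, which restrains TAF1, did the opposite. It had 34.1, 44.9, 38.3 and 41.8 cRPKM at the 2-cell stage, against 118, 108, 120.1 and 129 cRPKM at the 1-cell stage, and fell by 1.84 on the log2 scale (SE 0.12, edgeR adjusted p = 4.69e-07). Taf7l made up 11.8 ± 2.74% of the pair at the 2-cell stage and 0.0021 ± 0.0042% at the 1-cell stage (exact permutation p = 0.0286, adjusted 0.0409).

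Taf4 and Taf4b, the gonad-enriched paralogue of Taf4, rose together. Taf4b had 35.7, 33.3, 37.5 and 34.8 cRPKM in Snrpb, Snrpd2, Snrpb+Snrpd2 and mCherry embryos at the 2-cell stage, against 10.8, 11.5, 9.83 and 7.03 cRPKM at the 1-cell stage, a log2 difference of 1.62 ± 0.15 (edgeR adjusted p = 6.08e-06). Taf4 had 35.2, 29.1, 30.8 and 27.9 cRPKM at the 2-cell stage, against 9.70, 17.6, 11.1 and 6.02 cRPKM at the 1-cell stage, a difference of 1.31 ± 0.22 (adjusted p = 3.76e-04). Taf4b was 53.5 ± 2.31% of the pair at the 2-cell stage and 48.2 ± 6.52% at the 1-cell stage, which did not pass the test (exact permutation p = 0.20, adjusted 0.222).

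Taf9 and Taf9b, histone-fold TAFs that also enter the coactivator SAGA, overlapped between the stages. Taf9 had 379, 401, 360.3 and 386 cRPKM at the 2-cell stage, against 377, 319, 344 and 387 cRPKM at the 1-cell stage, and Taf9b had 149.9, 145, 133 and 152 cRPKM at the 2-cell stage, against 132, 128, 138 and 131 cRPKM at the 1-cell stage. Neither was called (log2 differences of -0.16 ± 0.11 and -0.13 ± 0.11, edgeR adjusted p = 0.203 and 0.296), and both signs turned with library totals (0.10 and 0.13). Taf9 was the TFIID member of highest level at either stage, and it shares exons on its own strand with Ak6, which had 1804 reads against 145839 for Taf9. The Taf9b share was 27.5 ± 0.93% at the 2-cell stage and 27.1 ± 1.79% at the 1-cell stage (exact permutation p = 0.657, adjusted 0.657).

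The other TFIID genes that rose were Taf13 (log2 difference 2.46), Taf2 (2.25), Taf11 (1.24), Taf10 (0.83), Taf6 (0.39) and Taf12 (0.37). TAF11 and TAF13 pair through histone folds, and TAF2 contacts initiator DNA. Taf13 had 38.2 to 46.6 cRPKM at the 2-cell stage and 4.89 to 9.02 cRPKM at the 1-cell stage, and Taf2 had 12.7 to 16.2 cRPKM at the 2-cell stage and 1.38 to 3.68 cRPKM at the 1-cell stage. The others that fell were Taf8 (-1.38), Taf1, which encodes the largest TAF (-1.20), Taf3, which has a PHD finger that reads a methylated histone (-0.51), and Taf5 (-0.33). The calls of Taf5, Taf6 and Taf12 were lost when single libraries were left out. Without 1-cell mCherry the difference was 0.22 for Taf6 and 0.29 for Taf12, and without 1-cell Snrpb it was -0.29 for Taf5, which library totals put at -0.071.

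Taf5l and Taf6l replace Taf5 and Taf6 in SAGA, and their differences were small. Taf5l had 10.8, 11.7, 11.4 and 9.38 cRPKM in Snrpb, Snrpd2, Snrpb+Snrpd2 and mCherry embryos at the 2-cell stage, against 6.35, 5.29, 7.41 and 8.16 cRPKM at the 1-cell stage, a rise of 0.42 ± 0.15 on the log2 scale (edgeR adjusted p = 0.0298). That call was lost without 1-cell Snrpd2 (0.24), 1-cell Snrpb (0.40) or 1-cell Snrpb+Snrpd2 (0.39), or without the 2-cell library of any of those 3 injections. Taf5 had 70.9, 75.0, 70.2 and 71.8 cRPKM at the 2-cell stage, against 79.9, 87.5, 74.7 and 62.4 cRPKM at the 1-cell stage.

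Taf6l had 4.43, 5.33, 4.31 and 4.47 cRPKM at the 2-cell stage, against 5.26, 5.26, 5.19 and 7.54 cRPKM at the 1-cell stage, and fell by 0.57 (SE 0.16, edgeR adjusted p = 0.01), a call lost without both mCherry libraries (-0.44), with library totals (-0.31) and with limma (-0.31 and -0.26). Taf6 had 64.2, 59.8, 61.5 and 58.6 cRPKM at the 2-cell stage, against 42.5, 46.5, 38.9 and 29.6 cRPKM at the 1-cell stage. Their shares were 13.0 ± 1.03% for Taf5l at the 2-cell stage against 8.41 ± 2.5% at the 1-cell stage (exact permutation p = 0.0571, adjusted 0.0714), and 7.07 ± 0.79% for Taf6l at the 2-cell stage against 13.3 ± 4.69% at the 1-cell stage (p = 0.0286, adjusted 0.0409).

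The 4 TAF genes of selectivity factor SL1, which serves polymerase I at ribosomal RNA genes, split 1 to 3. Taf1d had 71.9, 75.3, 69.0 and 61.03 cRPKM in Snrpb, Snrpd2, Snrpb+Snrpd2 and mCherry embryos at the 2-cell stage, against 8.25, 7.80, 9.99 and 8.52 cRPKM at the 1-cell stage, and rose by 2.75 on the log2 scale. Taf1b had 1.93, 1.75, 1.79 and 1.85 cRPKM at the 2-cell stage, against 18.8, 16.2, 19.8 and 22.4 cRPKM at the 1-cell stage, without overlap, and fell by 3.65 (SE 0.14, edgeR adjusted p = 2.32e-08). Taf1a fell by 2.83, and Taf1c, at 207 reads over all libraries, by 1.95, a call lost without 1-cell mCherry (-1.80). Cep295 and Dnaaf1 overlap Taf1d and Taf1c on the opposite strand, with 8503 and 156 reads. Taf15, an RNA-binding protein of the FET family, fell by 1.38 at a level of 0.37 to 0.83 cRPKM at the 2-cell stage and 0.85 to 1.60 cRPKM at the 1-cell stage, where Sm embryos held the lower 3 values.

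Gtf2b, which encodes the single protein TFIIB that joins TBP to the polymerase, was among the members that fell furthest. It had 68.0, 80.7, 63.5 and 66.1 cRPKM in Snrpb, Snrpd2, Snrpb+Snrpd2 and mCherry embryos at the 2-cell stage, against 309, 333, 337 and 464 cRPKM at the 1-cell stage. The log2 difference was -2.62 ± 0.14 (edgeR adjusted p = 9.91e-08), and its rank among the 81 members was 16 at the 2-cell stage and 2 at the 1-cell stage.

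In TFIIA the germ cell form fell and the general form rose. Gtf2a1l, the germ cell paralogue of Gtf2a1, had 3.0, 2.89, 2.54 and 3.5 cRPKM at the 2-cell stage, against 15.9, 13.4, 15.0 and 15.9 cRPKM at the 1-cell stage, and fell by 2.60 on the log2 scale (SE 0.15, edgeR adjusted p = 1.81e-07). Gtf2a1, the precursor of the large and middle subunits, had 97.1, 63.8, 81.8 and 81.6 cRPKM at the 2-cell stage, against 35.6, 38.6, 39.02 and 30.0 cRPKM at the 1-cell stage, and rose by 0.91 (SE 0.15, adjusted p = 2.77e-04). The Gtf2a1l share was 3.61 ± 0.71% at the 2-cell stage and 29.8 ± 3.87% at the 1-cell stage (exact permutation p = 0.0286, adjusted 0.0409). Gtf2a2, the small subunit, rose by 0.73 and reached 191 to 214 cRPKM at the 2-cell stage, against 69.1 to 135 cRPKM at the 1-cell stage.

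Both TFIIF genes fell. Gtf2f2, the small subunit, had 27.9, 33.9, 31.7 and 32.8 cRPKM at the 2-cell stage, against 55.1, 55.0, 66.5 and 64.9 cRPKM at the 1-cell stage (log2 difference -1.19 ± 0.11, edgeR adjusted p = 6.34e-06). Gtf2f1, the large subunit, fell by 0.46, a call lost without 1-cell mCherry (-0.38) and with library totals (-0.20), among others. Of TFIIE, Gtf2e1 had 15.6, 19.0, 17.0 and 15.9 cRPKM at the 2-cell stage, against 11.1, 10.3, 10.4 and 12.6 cRPKM at the 1-cell stage, and rose by 0.35, a call lost without 1-cell Snrpd2 (0.22). Gtf2e2 was not called, at -0.13 ± 0.11.

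TFIIH, whose helicases open the promoter and whose kinase phosphorylates the polymerase, moved in both directions. Gtf2h2, the p44 subunit that stimulates the helicase ERCC2, had 3.47, 3.51, 5.07 and 4.58 cRPKM at the 2-cell stage, against 27.1, 22.6, 23.1 and 28.8 cRPKM at the 1-cell stage, and fell by 2.88 (SE 0.17, edgeR adjusted p = 2.1e-07). Gtf2h3 fell by 1.62. Gtf2h4, the p52 subunit, had 3.42, 3.30, 3.08 and 3.0 cRPKM at the 2-cell stage, against 1.85, 1.57, 1.12 and 1.42 cRPKM at the 1-cell stage, and rose by 0.86 (SE 0.22, adjusted p = 5.03e-03). Gtf2h5 rose by 0.57, a call lost without the Snrpd2 libraries (0.35), and Gtf2h1 was not called (-0.15).

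Among the TFIIH core genes with other symbols, 1 of 5 rose and 4 fell. Ercc2 averaged 0.515 cRPKM at the 2-cell stage and 3.765 cRPKM at the 1-cell stage (log2 difference -3.12 ± 0.18), while Cdk7, the kinase, averaged 85.7 cRPKM at the 2-cell stage and 51.85 cRPKM at the 1-cell stage and rose by 0.48 (SE 0.14, edgeR adjusted p = 0.0132).

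Within Mediator, all 6 head genes analysed, which leave out Med20, fell at the 2-cell stage. Of 9 middle genes 6 fell and 2 rose, and of 9 tail genes 4 rose and 2 fell. Of all genes, 38.1% rose and 32.0% fell. The summed cRPKM was 154 ± 27.0 at the 2-cell stage and 515 ± 19.5 at the 1-cell stage for the head, and for the middle 458 ± 38.5 at the 2-cell and 652 ± 23.3 at the 1-cell stage (SD, n = 4 libraries each). For the tail it was 1242 ± 62.01 at the 2-cell stage and 902 ± 148 at the 1-cell stage. The head made up 8.04 ± 0.97% of Mediator cRPKM at the 2-cell stage and 24.7 ± 2.23% at the 1-cell stage, and the tail 65.3 ± 1.32% at the 2-cell stage and 42.9 ± 4.25% at the 1-cell stage, shares formed after the values were seen and given without a test.

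**Figure D4:**
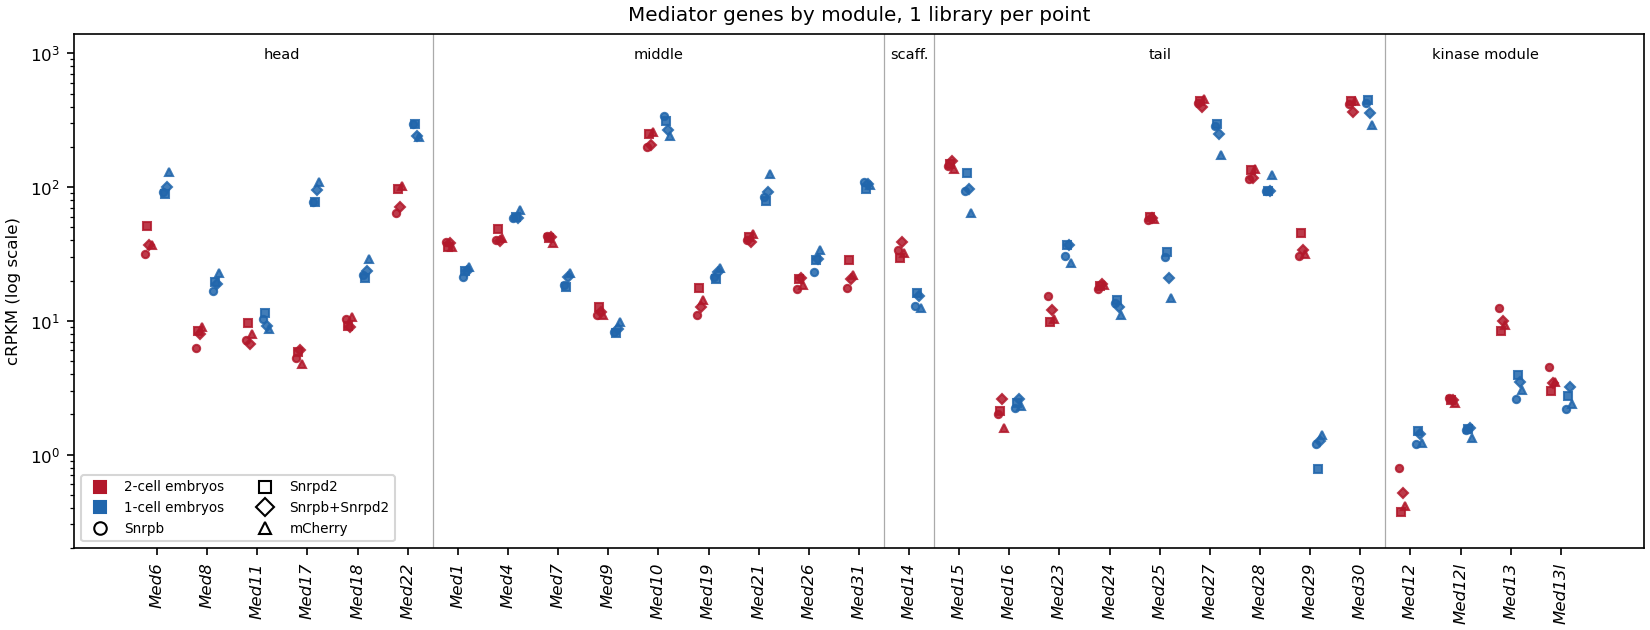
cRPKM (log scale) of the Mediator genes in each of the 8 libraries, by module, with 2-cell libraries left of 1-cell libraries. Med17 is lower by more than 10-fold and Med29 higher by more than 10-fold at the 2-cell stage. The head genes lie lower there, except Med11, whose stages overlap.

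Med17, the central subunit of the head, had 5.26 cRPKM in Snrpb, 5.81 in Snrpd2, 6.01 in Snrpb+Snrpd2 and 4.77 in mCherry embryos at the 2-cell stage, against 77.9, 76.7, 94.4 and 108 cRPKM at the 1-cell stage. Its 1-cell values were 19.4-fold those of the 2-cell stage in the fit, and it fell by 4.28 on the log2 scale (SE 0.15, edgeR adjusted p = 1.67e-08), further than any other member. The other head genes fell by 1.96 (Med22), 1.67 (Med6), 1.56 (Med8), 1.55 (Med18) and 0.60 (Med11). The stages overlapped for Med11, and its call was lost with library totals (-0.34). Med22 kept the highest level of the head, at 64.3 to 102 cRPKM at the 2-cell stage and 238 to 299 cRPKM at the 1-cell stage.

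In the middle module, Med31 had 17.5, 28.5, 20.4 and 22.1 cRPKM at the 2-cell stage, against 109.6, 96.4, 105 and 104 cRPKM at the 1-cell stage, and fell by 2.51 (SE 0.15, edgeR adjusted p = 3.01e-07). Its partner Med7 did the reverse, with 43.0, 41.7, 42.3 and 38.5 cRPKM at the 2-cell stage, against 18.6, 18.0, 21.1 and 22.8 cRPKM at the 1-cell stage, and rose by 0.78 (SE 0.12, adjusted p = 2.36e-04). MED7 and MED31 bind each other in a shared submodule. Med21 (-1.43), Med19 (-0.96), Med26 (-0.82), Med4 (-0.78) and Med10 (-0.60) fell, Med1, which nuclear receptors bind, rose by 0.40, and Med9 was not called. The call of Med10 was lost with library totals (-0.335), and that of Med1 without 1-cell Snrpb+Snrpd2 (0.34). Tm7sf3 and Zdhhc5, on the opposite strands of Med21 and Med19, had 69327 and 90522 reads against 21258 and 13177 for the members.

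In the tail, Med29 had 30.3, 45.5, 33.8 and 31.7 cRPKM at the 2-cell stage, against 1.19, 0.78, 1.26 and 1.41 cRPKM at the 1-cell stage, and rose by 4.66 (SE 0.23, edgeR adjusted p = 6.82e-08), a fitted 25.2-fold. Its rank among the 81 members was 33 at the 2-cell stage and 78 at the 1-cell stage. Med23 had 15.4, 9.76, 12.1 and 10.3 cRPKM at the 2-cell stage, against 30.7, 36.8, 36.9 and 27.1 cRPKM at the 1-cell stage, and fell by 1.74 (SE 0.16, adjusted p = 4.06e-06). Med25, which a herpes simplex virus activator contacts, rose by 1.05, Med27 by 0.54 and Med15 by 0.40, and Med16 fell by 0.49. Without 1-cell mCherry the calls of Med27 (0.28), Med15 (0.195) and Med16 (-0.44) were lost, and library totals put Med16 at -0.226, also not called. Med24, Med28 and Med30 were not called. Med14, the scaffold that joins tail to core, rose by 0.98, with 29.2 to 38.6 cRPKM at the 2-cell stage and 12.4 to 16.2 cRPKM at the 1-cell stage.

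The Med12 and Med13 genes of the kinase module and their paralogues had low cRPKM, at implied lengths of 6688 to 10496 bases. Med13, which ties the module to the core, had 12.4, 8.32, 9.99 and 9.29 cRPKM in Snrpb, Snrpd2, Snrpb+Snrpd2 and mCherry embryos at the 2-cell stage, against 2.61, 3.94, 3.51 and 3.04 cRPKM at the 1-cell stage, and rose by 1.35 (SE 0.17, edgeR adjusted p = 5.95e-05). Its paralogue Med13l had 4.54, 2.97, 3.41 and 3.5 cRPKM at the 2-cell stage, against 2.19, 2.74, 3.19 and 2.37 cRPKM at the 1-cell stage, and was not called. The Med13l share was 26.5 ± 0.81% at the 2-cell stage and 44.5 ± 2.8% at the 1-cell stage (exact permutation p = 0.0286, adjusted 0.0409).

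Med12, which activates the kinase, had 0.80, 0.37, 0.52 and 0.41 cRPKM at the 2-cell stage, against 1.19, 1.49, 1.42 and 1.23 cRPKM at the 1-cell stage, and fell by 1.65 (SE 0.24, edgeR adjusted p = 1.34e-04). Med12l had 2.65, 2.55, 2.56 and 2.43 cRPKM at the 2-cell stage, against 1.53, 1.56, 1.57 and 1.34 cRPKM at the 1-cell stage, and rose by 0.51 (SE 0.13, adjusted p = 5.41e-03). Med12l made up 83.2 ± 4.6% of the pair at the 2-cell stage and 53.0 ± 2.23% at the 1-cell stage (exact permutation p = 0.0286, adjusted 0.0409). Of the kinase module genes with other symbols, the kinase Cdk8 averaged 108 cRPKM at the 2-cell stage and 45.9 cRPKM at the 1-cell stage and rose by 0.98, Cdk19 rose by 0.61, and the cyclin Ccnc fell by 0.62.

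Partner genes outside the symbols also went both ways, beside 38.1% of all genes that rose and 32.0% that fell. Of 21 SAGA and ATAC genes, 6 rose and 10 fell, from Kat2b, an acetyltransferase (log2 difference 4.33), to Sgf29, which reads histone methylation (-2.49). Of 16 genes for polymerase II assembly, phosphatases of its C-terminal domain and elongation factor TFIIS, 6 rose and 6 fell, from Rprd1b (5.20) to Tcea3 (-2.73). Of 11 regulators and partners of TBP, 4 rose and 4 fell, from Snapc2 (3.79) to Snapc1 (-2.68), subunits of the same small nuclear RNA activating complex. Of 8 polymerase I genes 3 rose, Polr1c by the most (2.275), and 2 fell, Polr1a by the most (-1.35). Of 11 polymerase III genes 4 rose, Polr3g by the most (1.82), and 5 fell, Polr3a by the most (-2.46).

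For the Sm injections, edgeR called no member at either stage. The comparison set 3 Sm libraries against 1 mCherry library at each stage (edgeR, 16867 genes, the lone control assumed to vary like the Sm libraries), and 0 genes of all were called at either stage (0.0%). At an unadjusted p under 0.05 there were 0 of 81 members at the 2-cell stage (3.78% of all genes) and 23 at the 1-cell stage, 14 of them higher (28.4%, beside 15.5% of all). For the difference between the 2 stages' Sm effects 0 members were called and 18 had an unadjusted p under 0.05 (9.77% of all). With both stages fitted together 0 were called and 10 had such a p (7.51% of all).

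DESeq2, run as an alternative, called 0 members at the 2-cell stage, and 10 higher and 1 lower in Sm embryos at the 1-cell stage, beside 2.49% of all genes higher and 0.676% lower. It called 0 for the difference between stages, for which it called 0.0474% of all genes higher and 0.136% lower. The 11 members are described here because that test called them, and edgeR's adjusted p for the lowest of them was 0.146.

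Taf2 had 2.48 cRPKM in Snrpb, 3.68 in Snrpd2 and 3.33 in Snrpb+Snrpd2 embryos at the 1-cell stage, against 1.38 cRPKM in mCherry embryos. All 3 Sm libraries lay above the control, and the log2 difference was 1.22 ± 0.25 (edgeR adjusted p = 0.146, DESeq2 adjusted p = 3.54e-04). Taf4 had 9.70, 17.6 and 11.1 cRPKM in the Sm embryos against 6.02 cRPKM in mCherry embryos, and Med25 had 29.8, 32.9 and 20.8 against 14.7 cRPKM. The Snrpd2 library was the highest of the 4 for each of these 3 genes, and for every other member that DESeq2 called higher. It was the highest for 20.8% of all tested genes.

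Polr2f had 77.8, 89.4 and 67.8 cRPKM in Snrpb, Snrpd2 and Snrpb+Snrpd2 embryos at the 1-cell stage, against 43.4 cRPKM in mCherry embryos. Polr2j had 97.0, 107 and 79.0 cRPKM against 54.9 cRPKM. These small polymerase subunits kept the same order of libraries, with Snrpd2 highest and Snrpb+Snrpd2 the lowest of the Sm embryos. Med25, Med27, Gtf2a2, Taf4b and Taf6 had that order too. Med15 had 92.9, 127 and 96.9 cRPKM against 64.3 cRPKM, Med27 had 288, 297 and 249.3 against 172 cRPKM, and Gtf2a2 had 112, 135 and 101 against 69.1 cRPKM. Taf4b had 10.8, 11.5 and 9.83 cRPKM against 7.03 cRPKM, and Taf6 had 42.5, 46.5 and 38.9 against 29.6 cRPKM. Med21, the member called lower, had 84.7, 78.8 and 91.6 cRPKM in Sm embryos against 124 cRPKM in mCherry embryos. In the stage comparison Med21 also fell, and every member called higher in Sm embryos rose (38.1% of all genes rose and 32.0% fell). Both comparisons use the 1-cell mCherry library, and a low value there raises both differences, so their directions are not independent. Without that library the stage calls of Med15 (0.195), Med27 (0.277) and Taf6 (0.216) were lost. The stage calls of the other members that DESeq2 called were kept. What else links the comparisons was not tested.

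At the 2-cell stage none of these 11 members was called by either tool. Taf2 had 16.2, 12.7 and 15.4 cRPKM in Snrpb, Snrpd2 and Snrpb+Snrpd2 embryos against 14.1 cRPKM in mCherry embryos, and Polr2j had 355, 485 and 412 against 416 cRPKM. The difference between the stages' Sm effects, 2-cell minus 1-cell, was -1.19 ± 0.32 on the log2 scale for Taf2 (edgeR adjusted p = 0.381) and -0.86 ± 0.29 for Polr2j (adjusted p = 0.417), and neither was called.

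**Figure D5:**
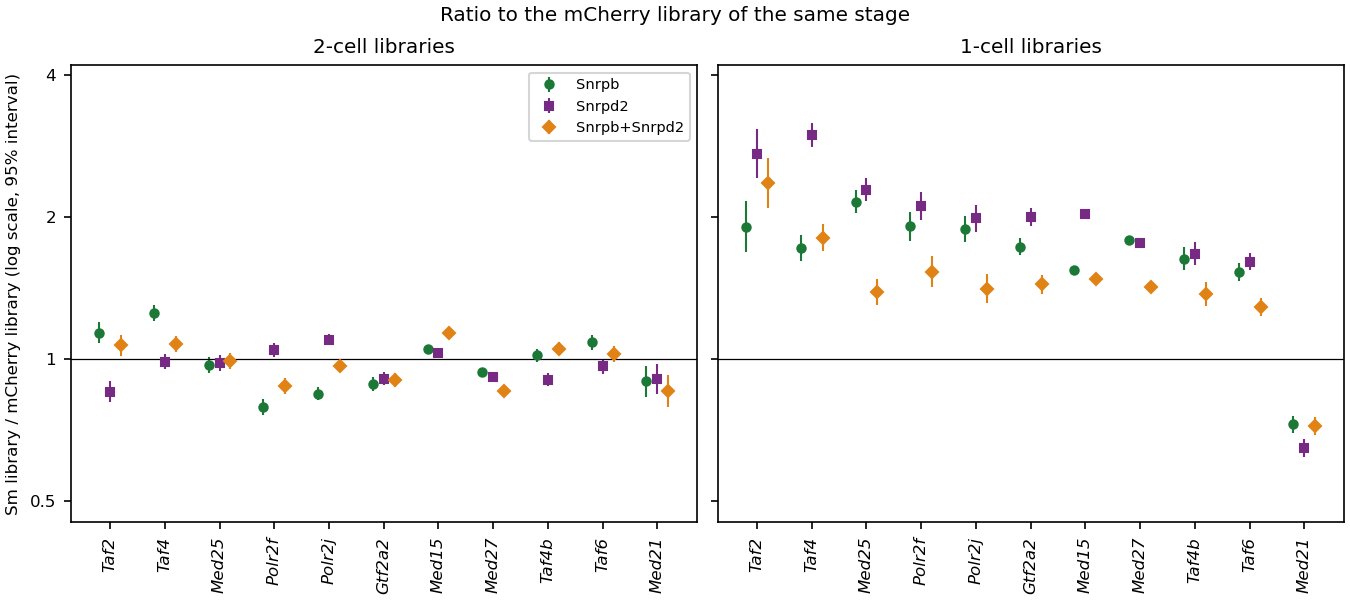
Ratio of each Sm library to the mCherry library of its stage (log scale, 95% counting interval) for the 11 members that DESeq2 called at the 1-cell stage, 2-cell on the left and 1-cell on the right. At the 1-cell stage 10 members lie above 1 in all 3 Sm libraries and Med21 below.

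No member was 2-fold past the control in all 3 Sm libraries of a stage, where 0.295% of all genes were higher and 0.14% lower at the 2-cell stage, and 0.621% higher and 0.175% lower at the 1-cell stage. With a 1.5-fold limit Taf2, Taf4 and Polr2f were higher in all 3 at the 1-cell stage and none was lower, of 80 with enough reads (3.25% of all genes higher and 1.84% lower). In single comparisons at the 2-cell stage no member passed the 2-fold limit in Snrpb embryos (2.65% higher and 1.73% lower of all) or Snrpd2 embryos (2.76% and 1.55%), and 1 was higher in Snrpb+Snrpd2 embryos, Taf15, at 66 reads against 32 (2.15% of all genes higher and 1.36% lower). At the 1-cell stage 1 member was 2-fold higher in Snrpb embryos (Med25, beside 3.37% of all genes) and 1 lower (Taf1c, 1.29%), 6 were higher in Snrpd2 embryos (Taf4, Taf2, Med25, Polr2f, Med15 and Gtf2a2, 3.65%, with 1.51% lower) and 1 in Snrpb+Snrpd2 embryos (Taf2, 3.26%, with 0.891% lower).

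Over all members, the 3 Sm libraries lay all above mCherry for 12 and all below for 18 at the 2-cell stage, beside 27.4% and 17.9% of all tested genes, and above for 28 and below for 37 at the 1-cell stage, beside 25.8% and 36.0%. By group, 2 of 16 TFIID TAF genes and 2 of 9 Mediator tail genes lay all above at the 2-cell stage. At the 1-cell stage 8 of 16 TFIID and 6 of 9 tail genes lay all above, and 7 of 9 Mediator middle genes and 4 of 6 head genes all below. Gtf2b was among those below, with 309, 333 and 337 cRPKM in Sm embryos against 464 cRPKM in mCherry embryos.

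At the 1-cell stage the cumulus and granulosa markers also differed between the Sm libraries and the lone mCherry library. Their sum was 36.1, 32.7 and 49.1 cRPKM in Snrpb, Snrpd2 and Snrpb+Snrpd2 embryos and 22.8 cRPKM in mCherry embryos. Of the 15, 8 were above mCherry in all 3 Sm libraries, beside 25.8% of all tested genes. The 2 below in all 3 were Star and Amh, beside 36.0% of all tested genes. Star had 1.36, 0.90 and 0.95 cRPKM in Sm embryos against 1.41 cRPKM in mCherry embryos. The values of the Sm embryos were 17.7, 19.7 and 18.1 cRPKM for Cyp19a1, against 15.5 cRPKM in mCherry embryos, and 2.23, 2.51 and 6.58 cRPKM for Inhba, against 0.93 cRPKM in mCherry embryos. Foxl2, Amh and Lhcgr were at no more than 0.05 cRPKM in any 1-cell library. The part of these cell markers in the 1-cell differences was not tested.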

How the data were processed

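Polyadenylated RNA of whole embryos was measured in 8 libraries (SMARTer Stranded RNA-Seq chemistry, HiSeq2500), per the labels' protocols. The authors deposited, for each library, a whole-number count of reads per Ensembl gene and a cRPKM value, an RPKM that divides the deposited count by a fixed gene length and the library total (checked on 2662 genes, deviation at most 0.178%). Per the submitters' processing notes, reads were placed on build mm9. Which aligner and annotation were used, and how strand and reads with several matches were handled, is not given in the sources used here.

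Symbols came from the gene table of the reference by Ensembl identifier, promoters from RefSeq GRCm38.p6 (no coordinates were moved between builds). Counts were tested with edgeR 4.0.16 (quasi-likelihood test, TMM, filterByExpr, Benjamini-Hochberg) in R 4.3.3, in 2 models. The stage model had stage and injection as terms (common dispersion 0.043, 3 residual degrees of freedom). The injection model had 4 groups, stage by Sm or mCherry (0.0362, 4 residual degrees of freedom). Standard errors of the edgeR differences were derived from each difference and its F statistic. The alternatives used DESeq2 1.42.0 and limma 3.58.1 on log2(cRPKM + 0.1) and log2(cRPKM + 1). Single libraries were compared as ratios of TMM-scaled counts, for genes reaching 50 reads in either library, with exact conditional binomial intervals at 95% confidence. These intervals and the floor of 3 reads for a count of 0 cover counting error only. Scripts were tested on simulated data with known changes.

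The members and gene lists were chosen with earlier results of these data known. Values in every library are given for the TBP family, each paralogue pair, Polr2a, and the called member with the largest rise and the largest fall of each complex. For the Sm injections edgeR called no member, and the 11 members that DESeq2 called there were added after the values were seen.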

Additional observations from a re-analysis of the deposited data

Results flagged for a closer look

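Among 162 groups of 4 libraries (each member at each stage), 5 had a library whose gap to its nearest neighbour exceeded Dixon's 95% critical share of the group's range, where chance flags about 1 in 20. In 3 of them the library was 1-cell mCherry, above the other 3: Med4 at 66.9 cRPKM (58.7 to 59.3 cRPKM in Sm embryos), Med28 at 123.7 cRPKM (93.1 to 94.2 cRPKM in Sm embryos) and Taf6l at 7.54 cRPKM (5.19 to 5.26 cRPKM in Sm embryos). Taf6l was also set apart at the 2-cell stage, where the Snrpd2 library had 5.33 cRPKM and the others 4.31 to 4.47 cRPKM. Taf7l in the 1-cell Snrpb+Snrpd2 library stood at 0.01 cRPKM, which is 1 read beside none in the other 3.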

How the results depend on the processing

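No paired analysis by replicate number was possible because the labels give none, but the edgeR stage test already pairs the libraries of an injection. The permutations of the paralogue shares do not. With no replicate block, 32 members were called higher and 34 lower, and Med15 was the only call lost. The counts ran from 27 to 31 higher and 30 to 34 lower when a library or injection was left out, and library totals gave 39 higher and 28 lower. No called member changed sign under any alternative tried, and 15 of 67 calls were lost under at least 1 of 19: Gtf2e1, Gtf2f1, Gtf2h5, Med1, Med10, Med11, Med15, Med16, Med27, Taf12, Taf1c, Taf5, Taf5l, Taf6 and Taf6l. The median log2 difference of the members was 0.142 with library totals, -0.077 with DESeq2 size factors or DESeq2, -0.172 without a low-count filter, 0.143 and 0.142 with limma at pseudocounts of 0.1 and 1, and -0.123 to -0.051 with a library or injection left out. For the Sm injections at the 1-cell stage DESeq2 gave 10 members higher and 1 lower, and a 1.5-fold limit gave 3 of 80 higher in all 3 libraries (3.25% of all genes). Over the whole 300 bases of a promoter the ETS core was in 32.9% of members and the YY1 letters in 11.4%. The cause of these shifts was not tested.

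Members that were not called turned sign with library totals, limma (0.1) and limma (1), in that order: Gtf2e2 0.131, 0.13 and 0.126; Gtf2h1 0.105, 0.105 and 0.101; Med30 0.142, 0.143 and 0.142; Polr2a 0.119, 0.106 and 0.075; Polr2b 0.245, 0.243 and 0.231; Taf9 0.099 in each; Taf9b 0.13, 0.13 and 0.129; Tbpl2 0.113, 0.112 and 0.106. Polr2b was also at 0.026 with DESeq2 size factors or DESeq2, and ran from -0.125 to 0.061 with a library or injection left out. Med28 ran from -0.036 to 0.104 and Polr2a from -0.462 to 0.222, with the Med28 values below 0 and the Polr2a values above 0 where Snrpd2 libraries were left out.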

Other observations

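Among the 2-cell libraries, members of different length stood highest in different injections. The Snrpd2 library had the highest cRPKM of the 4 for 37 of 81 members (45.7%, beside 35.7% of all tested genes). It had the lowest for 14 (17.3%, beside 21.5% of all tested genes). The median length implied by the deposited values was 1777 bases for those 37 and 5555 bases for those 14. Across the 81 members the ratio of a 2-cell library to the mean of the other 3 had a Spearman's rho with length of -0.48 for Snrpd2, -0.43 for mCherry, 0.45 for Snrpb and 0.55 for Snrpb+Snrpd2. At the 1-cell stage the coefficients were 0.27 for Snrpd2, -0.23 for mCherry, -0.26 for Snrpb and 0.45 for Snrpb+Snrpd2. Polr2a, Taf1, Gtf2a1, Med12, Med13, Med13l and Med14 were lowest in the 2-cell Snrpd2 library, and Polr2e, Polr2f, Polr2h, Polr2i, Polr2j, Polr2l and Med29 were highest there. These genes share libraries, the pattern was seen in these same values, and what lies behind it was not tested. The coefficients cover the members only, and whether other genes show the same pattern was not examined.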
